A study of Bos taurus with 8 samples.

Results

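The proteasome subunit genes encode the parts of the large barrel-shaped protease that degrades ubiquitin-tagged proteins in the cytosol and nucleus. Members were the array's noncontrol probes whose accession mapped to a PSMA, PSMB, PSMC or PSMD symbol with a number, leaving out the immunoproteasome subunits PSMB8, PSMB9 and PSMB10. The rule gave 68 of the 43653 noncontrol probes, which name 36 genes, and used no measured value. Of these, 35 genes on 65 probes were bright enough to be tested among 15137 genes, and 33 were above background on all 8 arrays.

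Proteins to be degraded are tagged with ubiquitin chains, held and unfolded by the regulatory particle at the end of the barrel, and cut inside the core particle. The core is built from rings of alpha subunits (PSMA genes), which gate the entrance, and rings of beta subunits (PSMB genes), some of which cut peptide bonds. The regulatory particle has ATPases (PSMC genes) that pull the substrate in, and non-ATPase subunits (PSMD genes) that bind ubiquitin or remove it. In leukocytes the peptides released by the proteasome are loaded on MHC class I molecules for display to T cells, and interferon exposure replaces the standard cutting subunits by immunoproteasome subunits.

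Peripheral blood mononuclear cells, the blood fraction of lymphocytes and monocytes, came from lame crossbred cows (4 arrays), normal crossbred cows (2 arrays) and normal Tharparkar cows (2 arrays), the last an Indian zebu breed. The labels give breed type and condition only; they give no age, treatment, number of cows or statement on pooling. RNA was run as technical duplicates, per the labels, and a lame array's title has 2 numbers, as in R1_2 or R2_1. The titles do not say which number marks the duplicate, so every p-value below measures spread between arrays, part of it technical, and is too small as a test of cows.

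By correlation across genes the arrays read as 4 RNA samples in duplicate, at 0.995 between the lame R1 arrays, 0.981 between the lame R2 arrays and 0.9952 to 0.9965 within a normal group, against 0.9512 to 0.9698 for other lame pairs. Lame R2_2 stood apart, with 70.94% of probes well above background and a median raw signal of 192.5, against 52.76% to 61.46% and 74 to 102 on the other 7 arrays. The pan-leukocyte marker PTPRC (CD45) was well above background on all 8 arrays. Levels below are on the log2 scale, as the processed signal after the 75th percentile of its own array was subtracted, so a level of 0 is as bright as that percentile, and levels of different genes are not comparable because each rests on its own probe.

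The mean level of the lame arrays was below that of the normal crossbred arrays for 22 of 35 members, beside 8096 of 15137 genes tested. It was below that of the Tharparkar arrays for 29 members, beside 7698 of all genes. The differences varied with which lame arrays were used. Against normal crossbred arrays no member was called higher and 2 were called lower, PSMD10 and PSMD14. Against normal Tharparkar arrays 7 were called lower, led by PSMD14 and the alpha ring subunit PSMA5, and 1 was called higher, the alpha ring subunit PSMA3. Between normal crossbred and normal Tharparkar arrays only PSMA3 was called, higher in the crossbred. Both PSMA3 calls rest on a dim probe that was not well above background on 1 of the 2 Tharparkar arrays. They are not read as differences between groups. Over all 3 comparisons 9 members, PSMA3 among them, were called in at least 1 and 26 in none. A single comparison called 3.3% to 12.5% of all genes in 1 direction. The share of all genes called in at least 1 comparison was not computed.

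**Figure D1:**
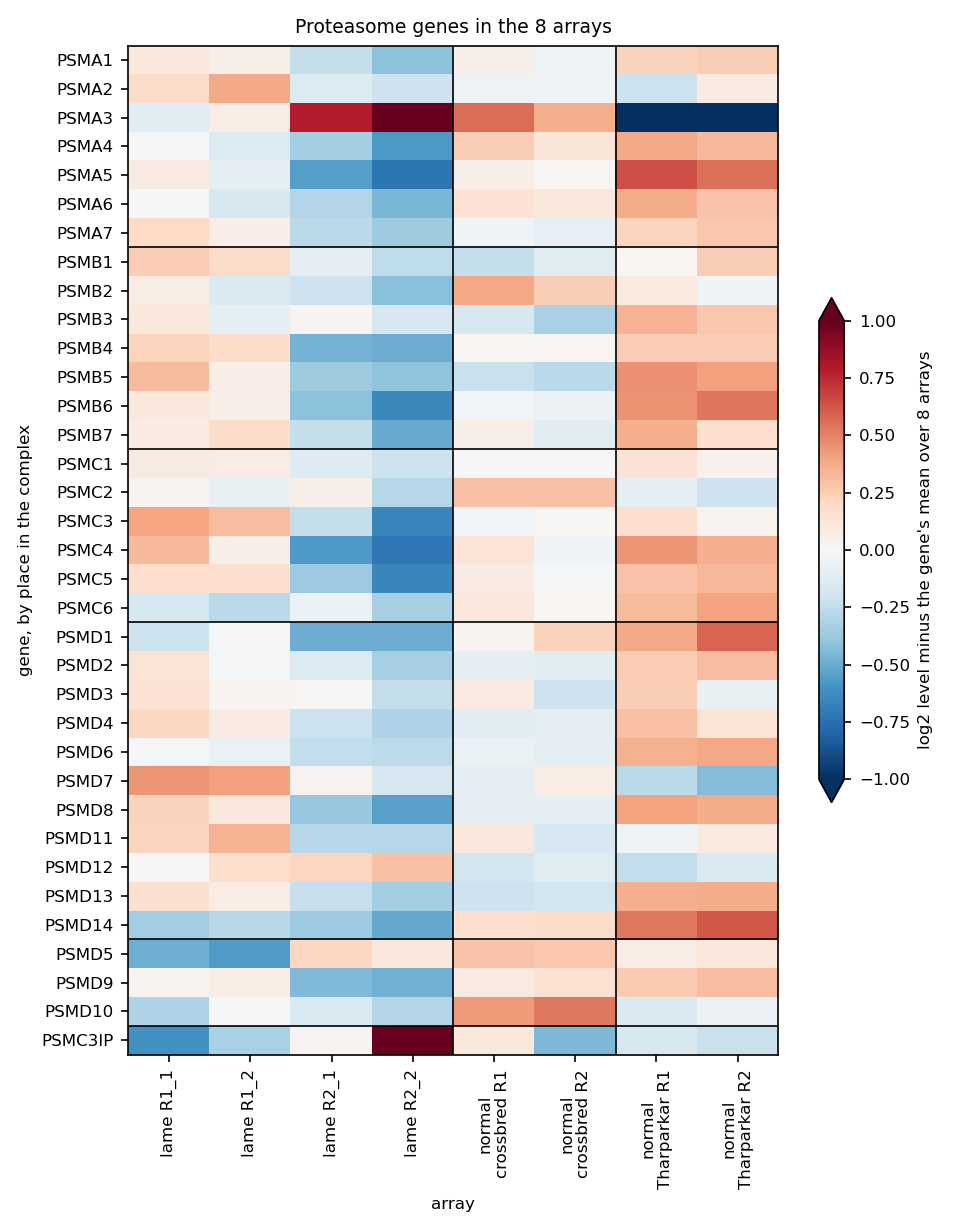
Log2 level of the 35 tested proteasome genes (vertical axis, grouped from the top as alpha ring, beta ring, ATPases, non-ATPase subunits, PSMD-named chaperones and PSMC3IP) on the 8 arrays (horizontal axis), as the difference from each gene's own mean over the 8 arrays, with colours ending at -1 and 1. The lame R2 columns are mostly blue and the normal Tharparkar columns mostly red, and PSMD14 is blue on all 4 lame arrays. PSMA3, on a dim probe, runs the other way and is not read as a difference between groups.

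The comparison of lame with normal crossbred cows asks what accompanies lameness within the crossbred. Among all genes, 3.3% were called higher and 6.32% lower by limma at an adjusted p under 0.05. Among the 35 members these were 0 and 2 genes. An unadjusted limma p under 0.05 was found for 1 member higher and 5 lower, beside 3906 of 15137 genes in either direction. The members' median log2 fold change was -0.06, beside -0.04 for all genes tested. Above 0 lay 13 members (37.1%, beside 46.5% of all genes), and 22 lay below. Within slide 1 and slide 2, each holding arrays of all 3 groups, the members' median was -0.13 and -0.13.

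PSMD14 encodes the metalloprotease subunit that cuts ubiquitin chains off substrates as they enter. Its levels were 2.52, 2.59, 2.51 and 2.36 on the lame arrays, 3.04 and 3.05 on the normal crossbred arrays, and 3.39 and 3.49 on the normal Tharparkar arrays. All 4 lame arrays lay below both crossbred arrays, which lay below both Tharparkar arrays. Lame R1 and lame R2 means were close, at 2.56 and 2.43, so this gene did not follow the split between lame arrays described below. The lame mean of 2.49 ± 0.10 (SD, n = 4 arrays) was 1.47-fold lower than the normal crossbred mean of 3.05 ± 0.01 (SD, n = 2 arrays), a log2 fold change of -0.55 (SE 0.13, limma adjusted p = 0.0427). A second PSMD14 probe gave a log2 fold change of -8e-04 for the same comparison. The call held in 4 of 19 alternatives: the authors' table, lame R1 alone, lame R2 alone and the fit without lame R2_2. Counts out of 19, here and below, include the authors' table, whose values nearly repeat those used here. They also include lame R1 or lame R2 alone, whose spread comes from duplicates only, so such counts overstate how far a call held.

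PSMD10 (gankyrin) is a chaperone that helps assemble the ATPase base and is also known as an oncoprotein that binds the retinoblastoma protein. Its levels were -1.23, -0.91, -1.07 and -1.21 on the lame arrays, -0.49 and -0.39 on the normal crossbred arrays, and -1.06 and -0.97 on the normal Tharparkar arrays. The crossbred arrays were above the other 6, and lame and Tharparkar arrays overlapped. The lame mean of -1.10 ± 0.15 (SD, n = 4 arrays) was 1.58-fold lower than the normal crossbred mean of -0.44 ± 0.07 (SD, n = 2 arrays), a log2 fold change of -0.66 (SE 0.15, limma adjusted p = 0.0336). The call held in 6 of 19 alternatives, and PSMD10 has 1 probe. Among those 6, the mean of probes leaves the value of a gene with 1 probe unchanged, and the authors' table nearly repeats it. The others were lame R1 alone, lame R2 alone and the fits without lame R1_2 or without lame R2_2.

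None of the other 33 tested members was called in this comparison. The lowest were PSMB2, a noncatalytic beta subunit, at -0.49 (95% interval -0.88 to -0.09), PSMD5, a base assembly chaperone, at -0.46 (-1.05 to 0.13), and PSMA4, an alpha subunit, at -0.45 (-0.88 to -0.02). The highest were PSMC3IP at 0.35 (-1.01 to 1.71) and PSMD12, a lid subunit, at 0.33 (0.00 to 0.65). PSMD12 read -0.90, -0.74, -0.71 and -0.63 on the lame arrays, -1.11 and -1.04 on the normal crossbred arrays, and -1.16 and -1.07 on the normal Tharparkar arrays. All 4 lame arrays were thus above the 4 normal ones, but its limma adjusted p was 0.189 against normal crossbred and 0.0929 against normal Tharparkar. PSMC3IP carries a subunit's name because its protein binds PSMC3 and acts in meiotic recombination; it meets the rule without being a subunit, and without it the median was -0.08.

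Within slides 1 and 2 the log2 fold change was -0.52 and -0.58 for PSMD14 and -0.66 and -0.67 for PSMD10, but with slide as a block 0 members were called and 4 lower had an unadjusted limma p under 0.05. No member was called lower without lame R1_1, without lame R2_1 or without any 1 of the 4 normal arrays, and 1 was without lame R1_2. With duplicates averaged by the first number 0 members were called and 0 had an unadjusted limma p under 0.05. The same held with the RNA sample as a random block. Of all 15137 genes those settings called 69 and 13 higher and 98 and 10 lower. Slide as a block called 353 genes higher and 647 lower, and leaving out 1 array 114 to 1156 lower.

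**Figure D2:**
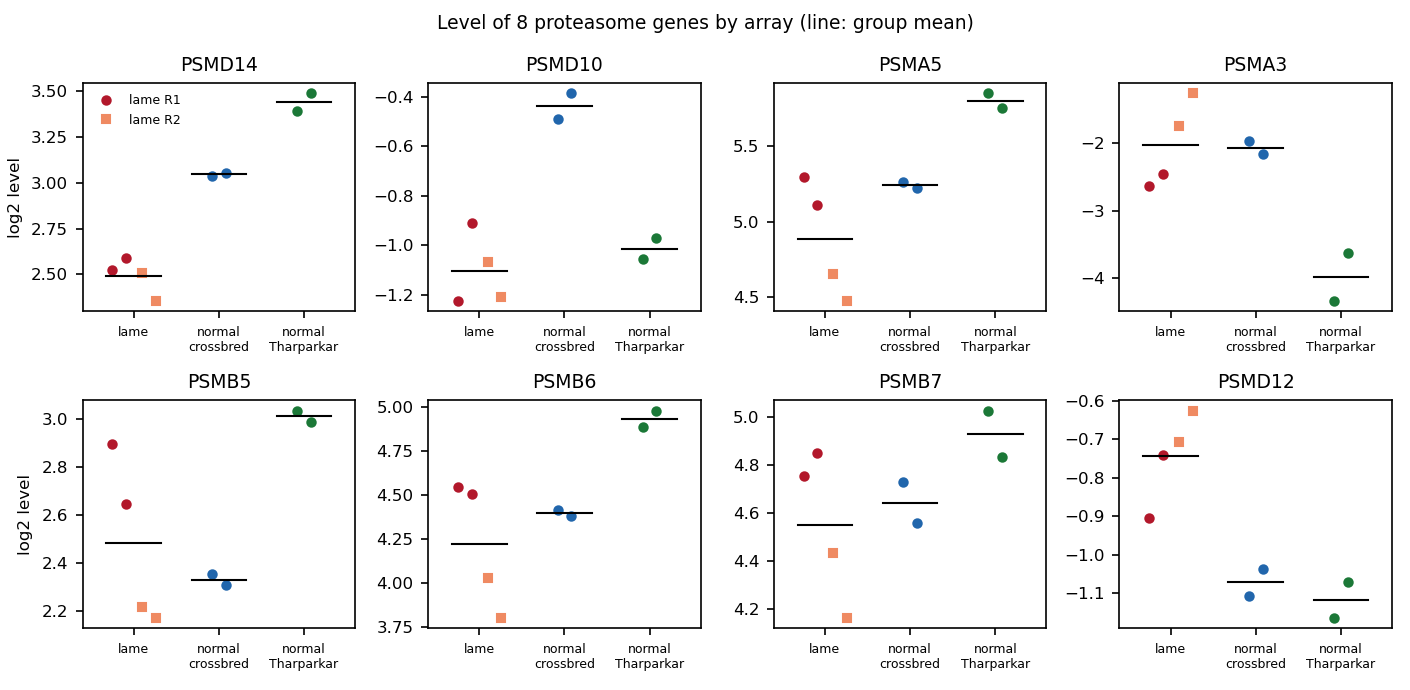
Log2 level (vertical axis, own scale per panel) of 8 proteasome genes on each array, with lame R1 as dark red circles, lame R2 as orange squares, normal crossbred in blue, normal Tharparkar in green and group means as lines. PSMD14 steps up over the 3 groups, and PSMD10 stands apart in the normal crossbred. PSMA3 rests on a dim probe, so its low Tharparkar points are not read as a difference between groups. The catalytic genes PSMB5, PSMB6 and PSMB7 are higher on lame R1 than on lame R2 arrays.

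Lame crossbred and normal Tharparkar cows differ in breed as well as in condition, and the study's title sets both beside each other. Among all genes, 12.5% were called higher and 10.8% lower in lame arrays; among the 35 members these were 1 and 7 genes. Above 0 lay 6 members (17.1%, beside 49.1% of all genes), and 29 lay below. The members' median log2 fold change was -0.35, beside -0.01 for all genes tested. It was -0.29 within slide 1 and -0.41 within slide 2. Both lame means lay below the Tharparkar mean for 25 members (71.4%), beside 33.7% of all genes.

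PSMD14 had the largest difference among the 7 lower calls. Its lame mean was 1.93-fold lower than the Tharparkar mean of 3.44 ± 0.07 (SD, n = 2 arrays), a log2 fold change of -0.95 (SE 0.13, limma adjusted p = 0.00327). The call held in 16 of 19 alternatives, with adjusted p between 0.000691 and 0.851. The other 6 lower calls held less often, PSMD1 in 10, PSMC6 in 9, PSMA5 in 8, PSMA4 and PSMD6 in 7 each and PSMA6 in 5 of the 19. The second PSMD14 probe gave -0.28.

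The alpha ring held 3 of the 7 lower calls, and its median over 7 tested genes was -0.35. PSMA5 read 5.29, 5.11, 4.65 and 4.48 on the lame arrays, 5.26 and 5.22 on the normal crossbred arrays, and 5.85 and 5.75 on the normal Tharparkar arrays. Lame R1 lay near the crossbred level and lame R2 below it, and all 4 were under the Tharparkar arrays, a log2 fold change of -0.92 (SE 0.24, limma adjusted p = 0.0339). A second PSMA5 probe gave -0.74, and with the mean of both PSMA5 probes the limma adjusted p was 0.055. PSMA4 read 3.38, 3.25, 3.05 and 2.81 on the lame arrays, 3.64 and 3.51 on the normal crossbred arrays, and 3.77 and 3.71 on the normal Tharparkar arrays. It fell by 0.62 on the log2 scale against the Tharparkar arrays (SE 0.18, limma adjusted p = 0.0484), and no lame array reached either normal group. PSMA6 read 5.93, 5.77, 5.64 and 5.47 on the lame arrays, 6.08 and 6.03 on the normal crossbred arrays, and 6.30 and 6.22 on the normal Tharparkar arrays, and fell by 0.55 (SE 0.16, limma adjusted p = 0.046), with its 3 probes between -0.71 and -0.41.

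Of the 6 ATPases only PSMC6 was called. It read 2.64, 2.54, 2.75 and 2.48 on the lame arrays, 2.93 and 2.83 on the normal crossbred arrays, and 3.13 and 3.22 on the normal Tharparkar arrays. The 3 groups did not overlap and lame R1 and lame R2 were level, at 2.59 and 2.62. The log2 fold change against the Tharparkar arrays was -0.57 (SE 0.14, limma adjusted p = 0.0251).

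Among the 11 non-ATPase subunits 3 were called lower, PSMD14 and the following 2. PSMD1, the large scaffold subunit of the base, read 3.02, 3.22, 2.74 and 2.74 on the lame arrays, 3.26 and 3.46 on the normal crossbred arrays, and 3.61 and 3.81 on the normal Tharparkar arrays. Lame arrays lay below the crossbred arrays and those below the Tharparkar arrays, with a lame to Tharparkar log2 fold change of -0.78 (SE 0.19, limma adjusted p = 0.0237). That value belongs to the brightest of 5 PSMD1 probes, which ranged from -0.78 to 0.58, and with the mean of the probes PSMD1 was not called. PSMD6, a lid subunit, read 3.67, 3.61, 3.44 and 3.42 on the lame arrays, 3.61 and 3.58 on the normal crossbred arrays, and 4.04 and 4.06 on the normal Tharparkar arrays. Lame and crossbred arrays overlapped and the Tharparkar arrays stood above both, with a lame to Tharparkar log2 fold change of -0.52 (SE 0.14, limma adjusted p = 0.0343).

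PSMA3 was the only member called higher. It read -2.63, -2.45, -1.74 and -1.26 on the lame arrays, -1.97 and -2.16 on the normal crossbred arrays, and -4.34 and -3.64 on the normal Tharparkar arrays. The crossbred arrays lay inside the lame range and both Tharparkar arrays lay below it. Its single probe was dim: it was well above background on 4 of 4 lame, 2 of 2 normal crossbred and 1 of 2 normal Tharparkar arrays, so it passed the filter only through the groups where it was high, and the size of its difference from Tharparkar is not well measured. The fitted log2 fold change was 1.97 (SE 0.41, limma adjusted p = 0.0142), a call held in 13 of 19 alternatives. Because of the filter this call is counted but not read as a difference between groups. With normexp background correction the log2 fold change was 0.02, and the call was also lost without the filter on dim probes and without either Tharparkar array.

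Within slides the 7 lower calls ranged from -0.88 to -0.44 on slide 1 and from -1.02 to -0.55 on slide 2, PSMA3 was at 2.16 and 1.78, and with slide as a block 1 member was called higher and 3 lower. No member was called lower without the second Tharparkar array, and 1 was without the first one or without either normal crossbred array; the count was 3 without lame R2_1, 5 without lame R1_2, 6 without lame R2_2 and 9 without lame R1_1. With duplicates averaged by the first number 0 members were called, and 1 higher and 0 lower had an unadjusted limma p under 0.05. With the RNA sample as a random block 0 were called, and 1 higher and 2 lower had such a p. Of all 15137 genes those settings called 318 and 111 higher and 213 and 94 lower. Slide as a block called 1601 genes higher and 1298 lower, and leaving out 1 array 322 to 1812 lower.

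The comparison of normal crossbred with normal Tharparkar cows sets the breeds beside each other in cows that were not lame, and it shares its arrays with the other comparisons. Among all genes, 11.7% were called higher and 6.91% lower in the normal crossbred. Among the 35 members these were 1 and 0 genes. An unadjusted limma p under 0.05 was found for 3 members higher and 5 lower, beside 5097 of 15137 genes in either direction. The members' median log2 fold change was -0.23, beside 0.01 for all genes tested. Above 0 lay 9 members (25.7%, beside 50.6% of all genes), and 26 lay below. The called gene was PSMA3, at a fitted log2 fold change of 1.92 (SE 0.47, limma adjusted p = 0.0295). Here too its dim probe was well above background on only 1 of the 2 Tharparkar arrays, so the call is not read as a difference. PSMD10, at 0.58, and PSMB3, a noncatalytic beta subunit, at -0.55, were closest to the threshold, with limma adjusted p of 0.0544 and 0.0579. PSMA3 was at 2.37 within slide 1 and 1.48 within slide 2. The PSMA3 call was lost without any 1 of the 4 normal arrays, with duplicates averaged by the first number and with the RNA sample as a random block. Under normexp its log2 fold change was -0.0056.

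For both comparisons with the Tharparkar arrays the position of the members relative to all genes depended on the background correction. With normexp the median of all genes was -0.16 in lame arrays and -0.10 in normal crossbred arrays against Tharparkar arrays, and the members' median was -0.14 and -0.04. The members therefore lay 0.02 and 0.06 above all genes there, and 0.34 and 0.24 below them with the processed signal. With quantile normalization they lay 0.09 and 0.12 below.

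**Figure D3:**
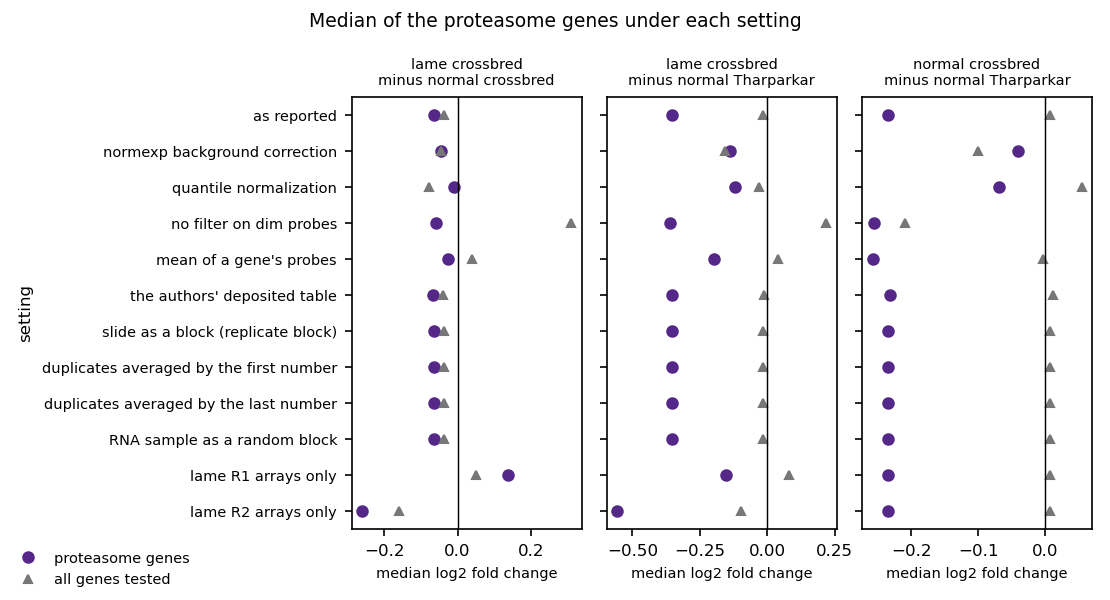
Median log2 fold change (horizontal axis, own scale per panel) of the proteasome genes (purple circles) and of all genes tested (grey triangles) in the 3 comparisons (panels) under each setting (vertical axis); without the filter on dim probes 36 proteasome genes enter, otherwise 35. In the middle panel the circle is at -0.35 as reported, beside the triangle under normexp (-0.14 and -0.16), and at -0.15 with lame R1 and -0.56 with lame R2 arrays only.

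The catalytic subunits are the cutting members of the beta ring, and none of them was called in any comparison. PSMB5, which cuts after hydrophobic residues, read 2.90, 2.65, 2.22 and 2.17 on the lame arrays, 2.35 and 2.31 on the normal crossbred arrays, and 3.03 and 2.99 on the normal Tharparkar arrays. Lame R1 arrays were above and lame R2 arrays below the crossbred arrays, and all 6 were below the Tharparkar arrays. The log2 fold change of PSMB5 was 0.15 in lame against normal crossbred arrays (95% interval -0.38 to 0.68), -0.53 in lame against Tharparkar arrays (-1.06 to 0.00) and -0.68 in normal crossbred against Tharparkar arrays (-1.29 to -0.07).

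PSMB6, which cuts after acidic residues, read 4.54, 4.50, 4.03 and 3.80 on the lame arrays, 4.41 and 4.38 on the normal crossbred arrays, and 4.89 and 4.98 on the normal Tharparkar arrays. The order of the arrays was that of PSMB5, with log2 fold changes of -0.18 (-0.73 to 0.37), -0.71 (-1.27 to -0.16) and -0.54 (-1.17 to 0.10) in the same 3 comparisons. PSMB7, which cuts after basic residues, read 4.75, 4.85, 4.43 and 4.16 on the lame arrays, 4.73 and 4.56 on the normal crossbred arrays, and 5.03 and 4.83 on the normal Tharparkar arrays. Here lame R1 also overlapped the Tharparkar arrays, and the log2 fold changes were -0.09 (-0.61 to 0.42), -0.38 (-0.89 to 0.13) and -0.29 (-0.88 to 0.30). Of these 9 values 2 had an unadjusted limma p under 0.05, PSMB6 in lame and PSMB5 in normal crossbred against Tharparkar arrays. Of all 15137 genes, 5694 and 5097 had such a p in those comparisons. The limma adjusted p nearest the threshold was that of PSMB6 in lame against Tharparkar arrays, at 0.066.

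The immunoproteasome subunits that take the places of these 3 gave 2 calls, both of PSMB10, the counterpart of PSMB7. Against Tharparkar arrays 10.8% of all genes were called lower in lame and 6.91% in normal crossbred arrays. PSMB10 read 1.95, 1.78, 2.16 and 1.89 on the lame arrays, 1.55 and 1.62 on the normal crossbred arrays, and 2.58 and 2.43 on the normal Tharparkar arrays. The groups did not overlap, and lame arrays lay between the normal groups. It was lower than in the Tharparkar arrays in lame arrays, by a log2 fold change of -0.56 (SE 0.15, limma adjusted p = 0.0367), and in normal crossbred arrays, by -0.92 (SE 0.18, limma adjusted p = 0.0125). Both calls were lost with duplicates averaged and with the RNA sample as a random block. PSMB8, the counterpart of PSMB5, read 5.85, 5.78, 5.32 and 5.04 on the lame arrays, 5.88 and 5.71 on the normal crossbred arrays, and 5.81 and 5.93 on the normal Tharparkar arrays. PSMB9, the counterpart of PSMB6, read 7.06, 6.89, 6.39 and 6.18 on the lame arrays, 6.58 and 6.60 on the normal crossbred arrays, and 6.99 and 7.00 on the normal Tharparkar arrays. Both had lower levels on the lame R2 than on the lame R1 arrays, as the standard catalytic subunits had. Their log2 fold changes in lame arrays were -0.30 and 0.04 against normal crossbred and -0.37 and -0.37 against normal Tharparkar, none of them called. The 3 PSMB9 probes ranged from -1.02 to -0.27 in lame and from -1.11 to -0.40 in normal crossbred against Tharparkar arrays. Those of PSMB8 ranged from -0.60 to -0.15 and from -0.43 to 0.20.

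The remaining beta subunits, PSMB1 to PSMB4, serve structure and not cutting. In lame against Tharparkar arrays all 7 tested beta ring genes lay below 0, between -0.71 and -0.11, with a median of -0.38. PSMB11, a beta subunit of thymic epithelium and the next protein-coding gene to PSMB5 in the RefSeq annotation, has 1 probe and was above background on 1 of 8 arrays, a Tharparkar array, so it was not tested. The ATPases all lay below 0 in lame against normal crossbred arrays, between -0.36 and -0.03, with a median of -0.24. The non-ATPase subunits had a median of 0.03 there, with 7 of 11 above 0, and of -0.37 against the Tharparkar arrays. PSMD7, the partner subunit with which PSMD14 pairs in the lid, had another order of groups. PSMD7 read 1.87, 1.84, 1.46 and 1.26 on the lame arrays, 1.34 and 1.50 on the normal crossbred arrays, and 1.16 and 1.00 on the normal Tharparkar arrays. Its lame arrays were all above the Tharparkar arrays, where PSMD14's were all below, with a log2 fold change of 0.53 (95% interval 0.04 to 1.02, limma adjusted p = 0.111). The 3 PSMD-named chaperones PSMD5, PSMD9 and PSMD10 had a median of -0.46 in lame against normal crossbred arrays and of -0.28 against Tharparkar arrays.

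The lame arrays did not form 1 level. The mean of the lame R1 arrays exceeded that of the lame R2 arrays for 30 of 35 members (85.7%, beside 60.2% of all genes), with a median difference of 0.40 on the log2 scale, beside 0.18 for all genes. The largest were the ATPases PSMC4 at 0.84 and PSMC3 at 0.79 and the beta subunit PSMB4 at 0.69. PSMC4 read 4.81, 4.54, 3.91 and 3.78 on the lame arrays, 4.62 and 4.46 on the normal crossbred arrays, and 4.93 and 4.85 on the normal Tharparkar arrays. Its lame R1 arrays were thus within the range of the normal arrays and its lame R2 arrays below all others. The opposite order was seen for PSMC3IP at -1.29, PSMA3 at -1.04, PSMD5 at -0.68, PSMD12 at -0.16 and PSMC6 at -0.03. PSMC3IP and PSMA3 are the 2 tested members that were not above background on all 8 arrays, and their highest value was that of lame R2_2, the array with the raised raw signal.

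Set against the normal crossbred mean, lame R1 lay above and lame R2 below for 19 members (54.3%, beside 27.5% of all genes). Both lay below for 11 (31.4%, beside 32.9%) and both above for 3, PSMB1, PSMB3 and PSMD12 (8.57%, beside 26.7%). The members' median difference from normal crossbred was 0.14 with lame R1 and -0.26 with lame R2, and from Tharparkar -0.15 and -0.56. Both lame R2 arrays lay below the other 6 arrays for 23 members (65.7%, beside 27.5% of all genes), and both Tharparkar arrays above the other 6 for 19 (54.3%, beside 19.9%). With lame R1 arrays alone as the lame group 6 members were called higher and 5 lower than normal crossbred (17.1% and 14.3%, beside 24.9% and 22.5% of all genes). With lame R2 arrays alone 1 was called higher and 14 lower (2.86% and 40%, beside 15.1% and 31.1%). The spread in those fits comes from duplicates only.

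**Figure D4:**
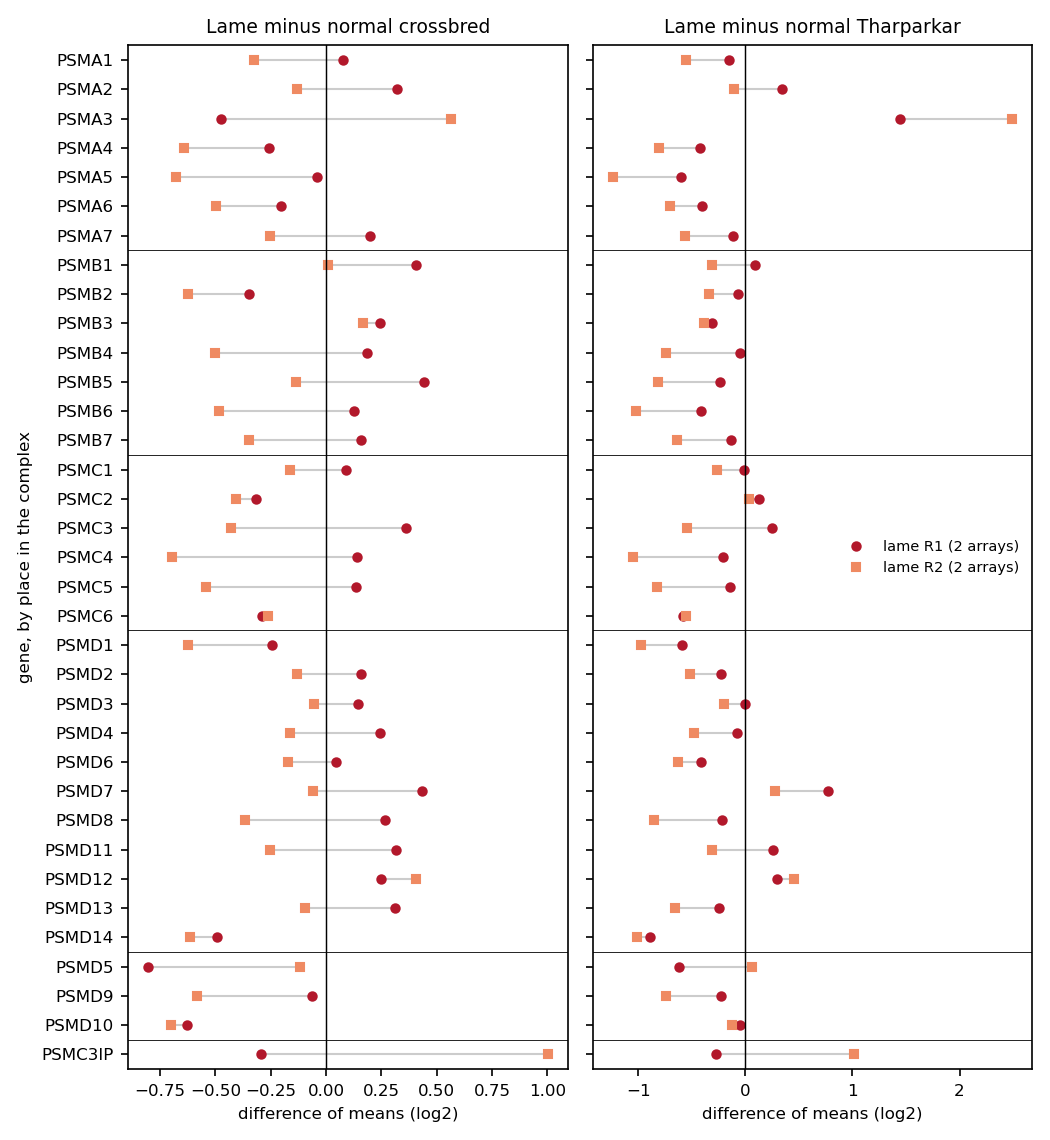
Difference of means on the log2 scale (horizontal axis, own scale per panel) of the 2 lame R1 arrays (dark red circles) and the 2 lame R2 arrays (orange squares) from normal crossbred (left) and normal Tharparkar (right), for each tested proteasome gene (vertical axis), with a grey line joining both. In the left panel 19 genes have their circle above 0 and their square below it; in the right panel both lie below 0 for 25 genes.

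Proteasome genes are bright on the array: 25 of 35 members were in the top 25% of tested genes by mean level. Genes of that brightness had medians of the same sign as the members. Their median difference between lame R1 and lame R2 was 0.47, and their median log2 fold change was -0.12 in lame against normal crossbred, -0.26 in lame against Tharparkar and -0.15 in normal crossbred against Tharparkar arrays, beside -0.06, -0.35 and -0.23 for the members. Whether a difference belongs to brightness or to the proteasome was not tested. The members' median SD over the 8 arrays was 0.29, beside 0.40 for all genes and 0.32 for the bright genes.

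**Figure D5:**
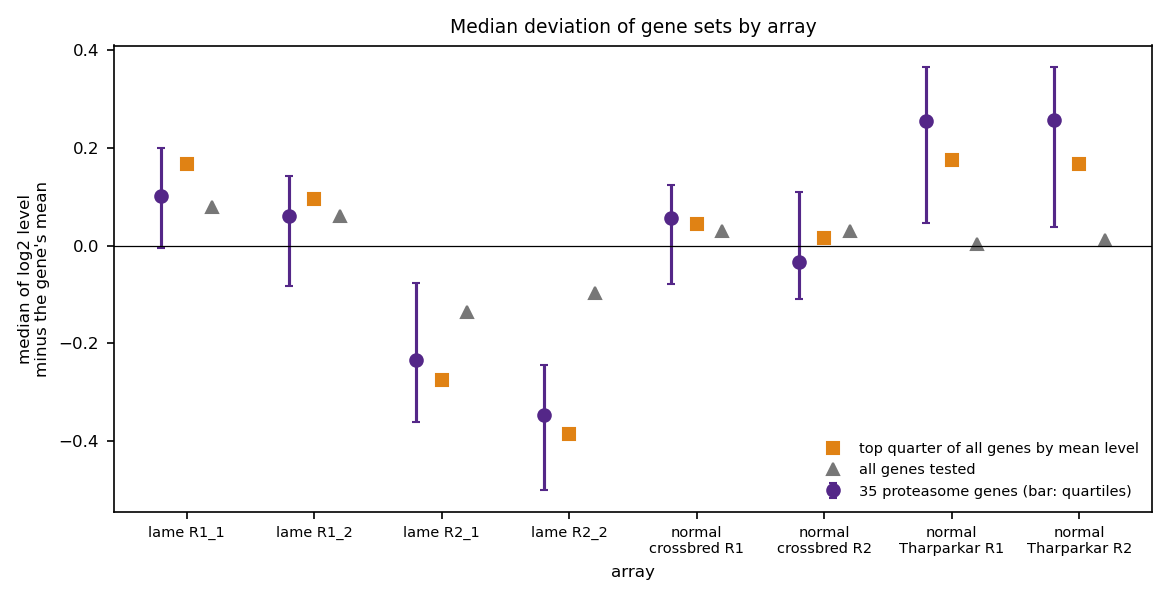
Median over genes of the log2 level minus the gene's mean over 8 arrays (vertical axis), by array (horizontal axis), for the 35 proteasome genes (purple circles, bars from lower to upper quartile), the top 25% of genes by mean level (orange squares) and all genes tested (grey triangles). The proteasome genes lie at -0.23 and -0.35 on the lame R2 arrays and at 0.25 and 0.26 on the Tharparkar arrays, and the bright genes lie at -0.27 and -0.39 and at 0.17 and 0.17.

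The makeup of the cells also differed between arrays, and in bulk RNA fewer cells of a type and less RNA per cell cannot be told apart. Summed linear levels of 3 measured markers of dividing cells, of 5 listed, were 0.629 to 0.898 on lame, 1.63 to 1.65 on normal crossbred and 2.52 to 2.64 on Tharparkar arrays, the same order of groups as PSMD14, PSMC6 and PSMA4. Such a sum follows its brightest probes: CDK1 and BIRC5 were called lower in lame arrays than in both normal groups, while the dim CCNB1 was at 0.19 against normal crossbred. Monocyte markers (4 of 4) averaged 26.8 on lame R1 and 43.4 on lame R2 arrays, with 21.3 to 21.6 on normal crossbred and 25.9 to 28.7 on Tharparkar arrays. The markers behind that sum did not run together. CSF1R was called higher in lame arrays than in normal crossbred arrays, at 1.00 (limma adjusted p = 0.0248), and CD14 was called lower, at -1.56 (limma adjusted p = 0.0229). CD14 was also called lower than in Tharparkar arrays, at -1.62 (limma adjusted p = 0.0103), and CD68 was at -0.70 in both comparisons, not called. B cell markers (3 of 4) averaged 120 on lame R1 and 81.1 on lame R2 arrays. They were 118 to 121 on normal crossbred and 131 to 149 on Tharparkar arrays, an order like that of the members' medians. MS4A1 differed, at 4.23 on lame R1 and 4.49 on lame R2 arrays. It was called lower in lame than in Tharparkar arrays, at -0.93 (limma adjusted p = 0.00767). T cell markers (5 of 5) were 24.8 to 27.1 on lame, 38.4 to 39.5 on normal crossbred and 21.3 to 21.6 on Tharparkar arrays, but CD5 ran against that sum and was called lower than in Tharparkar arrays in lame arrays, at -0.89 (limma adjusted p = 0.0178), and in normal crossbred arrays, at -1.07 (limma adjusted p = 0.0176). NK cell markers (4 of 4) were 33.1 to 68.7 on lame, 114 to 124 on normal crossbred and 45.2 to 49.1 on Tharparkar arrays. NKG7 was called lower in lame than in normal crossbred arrays, at -1.44 (limma adjusted p = 0.00113). It was called higher in normal crossbred than in Tharparkar arrays, at 1.25 (limma adjusted p = 0.00195). In lame against normal crossbred arrays KLRK1 and GNLY were at -1.22 and -1.32 and the dim NCR1 at 0.57, none of them called. Granulocyte markers (7 of 8) were 64.9 to 86.3 on lame, 96.1 to 103 on normal crossbred and 112 to 113 on Tharparkar arrays. S100A8 makes up most of the granulocyte sum, which hides larger differences of dimmer markers. The neutrophil chemokine receptor CXCR1 averaged -1.53 on lame, 2.29 on normal crossbred and 3.26 on Tharparkar arrays, and was called lower in lame arrays than in both normal groups, at -3.82 and -4.78 (limma adjusted p = 0.0113 and 0.0024). CXCR2 and CATHL1 were well above background on 2 of 4 and 0 of 4 lame arrays. Both passed the filter only through normal groups, where they were high, so their lower lame values are not read as calls. MPO was called lower in lame than in normal crossbred arrays, at -1.70 (limma adjusted p = 0.0315), and was at 0.36 against Tharparkar arrays, not called. Erythroid markers (4 of 4) were 11.9 to 21.4, 7.28 to 8.37 and 6.52 to 6.93 in the same order of groups, platelet markers (2 of 4) were 15.9 to 17.7, 13.4 to 14.3 and 8.97 to 9.6, and plasma cell markers (2 of 3) were 5.42 to 11.7, 16.2 to 17.1 and 16 to 16.2. Among the erythroid markers AHSP was at -0.25 in lame against normal crossbred arrays, where HBB, HBA and ALAS2 were at 1.05, 0.82 and 1.30, none of them called. HBA was higher on lame R1 than on lame R2 arrays, and HBB, ALAS2 and AHSP were lower. The part of these markers in the proteasome results was not tested.

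Genes outside the members that assemble or activate the proteasome gave calls in the comparisons with Tharparkar arrays and none in lame against normal crossbred arrays. POMP, the chaperone that builds the beta rings, read 5.41, 5.42, 5.11 and 5.04 on the lame arrays, 5.77 and 5.82 on the normal crossbred arrays, and 6.15 and 6.21 on the normal Tharparkar arrays. The groups did not overlap, and POMP fell by 0.94 on the log2 scale in lame against Tharparkar arrays (SE 0.16, limma adjusted p = 0.00736), a call kept in 14 of 19 alternatives. PSMG1, a chaperone of the alpha ring, was lower than in Tharparkar arrays both in lame arrays, at -0.59 (limma adjusted p = 0.0242), and in normal crossbred arrays, at -0.75 (limma adjusted p = 0.0201), calls kept in 9 and 10 of 19. Of 5 measured assembly chaperones outside the members, 2 were thus lower in lame arrays and 1 in normal crossbred arrays against Tharparkar arrays, beside 10.8% and 6.91% of all genes.

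Of 4 measured activators and inhibitors, PSME4, an activator that opens the core without ubiquitin, was called higher than in Tharparkar arrays in lame arrays, at 0.46 (limma adjusted p = 0.0342), and in normal crossbred arrays, at 0.62 (limma adjusted p = 0.0234), calls kept in 7 and 10 of 19 alternatives, where 12.5% and 11.7% of all genes were called higher. The interferon-inducible activators PSME1 and PSME2 were called in no comparison. Of 7 other measured regulatory particle components, UCHL5, a deubiquitinating enzyme held by ADRM1, was called lower in lame against Tharparkar arrays at -0.83 (limma adjusted p = 0.0381), where 10.8% of all genes were; the call was kept in 8 of 19 alternatives and its value was -0.13 with the mean of its 4 probes. Of 9 measured genes of the NFE2L1 pathway and the VCP segregase, NGLY1 was called. This glycanase readies NFE2L1, the transcription factor that restores proteasome gene expression, and was lower in lame than in normal crossbred arrays, at -0.58 (limma adjusted p = 0.0329), and higher in normal crossbred than in Tharparkar arrays, at 0.89 (limma adjusted p = 0.00741). Those calls were kept in 6 and 12 of 19 alternatives, and 6.32% of all genes were called lower in the first comparison and 11.7% higher in the second. NFE2L1 itself was at 0.40 in lame against normal crossbred arrays (95% interval -0.02 to 0.82) and was not called. All of these calls were lost with duplicates averaged by the first number and with the RNA sample as a random block.

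Several members are measured by more than 1 probe, and the probes did not always run together. Of 19 members with several kept probes, 13 had probes of opposite sign in at least 1 comparison: PSMA2, PSMA7, PSMB3, PSMB4, PSMB7, PSMC1, PSMC3, PSMC3IP, PSMC5, PSMD1, PSMD4, PSMD5 and PSMD8. The probes of 4 members differed by over 1 log2 unit. In lame against Tharparkar arrays those of PSMB4 gave -0.39 and 0.85, those of PSMD5 gave -0.28 and 0.74, and those of PSMD1 ranged from -0.78 to 0.58. In normal crossbred against Tharparkar arrays the probes of PSMD4, a ubiquitin receptor, ranged from -1.25 to -0.23.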

How the data were processed

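The authors deposited 1 scanner file per array, with spot intensity values from 1-colour (Cy3) scans of a bovine Agilent design. Per the file headers, the software had subtracted background and a spatial trend from the processed signal and had not scaled arrays to each other. Their stated version of Agilent Feature Extraction is 12.0.3.1, and 11.5.1.1 stands in the submitters' processing notes. A series table of log2 values, also deposited by the authors, has no stated scale; its columns correlated at 0.999997 or more with the values used here once these were centred on each probe's median, and it served as an alternative.

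Computed here were log2 processed signals minus each array's 75th percentile over 43653 noncontrol probes. Left out were 35 probes with outlier flags and probes that no group had well above background on all its arrays, which kept 24658. Accessions were matched to RefSeq (ARS-UCD2.0) for 27054 probes and not for 16599; no coordinates were used, since the array annotation was made on an older assembly. A gene took its brightest probe, which gave 15137 genes.

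The 3 groups were compared in 1 fit of group means with limma 3.58.1 under R 4.3.3 (2-sided moderated test of lmFit and eBayes, 5 residual and 2.34 prior degrees of freedom), adjusted by Benjamini-Hochberg over all genes and called at an adjusted p under 0.05. The number of arrays limits the precision. Arrays with the same last number share a slide, not a stated cow, and were not taken as pairs in the main fit. For arrays of different groups on a slide, deviations from group means correlated positively in all 10 pairs. The values were 0.0401 to 0.238, over 0.1 in 5 pairs. With slide as a block, run as an alternative, 0 members were called in lame against normal crossbred arrays. Alternatives were normexp on the median signals (chosen after seeing the data, because the mean signal column was absent), quantile normalization, no filter, mean of probes, the authors' table, slide as a block, duplicates averaged or as a random block, lame R1 or R2 alone, and each array left out. Members and gene lists were chosen with earlier results of these data known. Named in full were called members, the catalytic subunits with their immunoproteasome counterparts, called genes of the other lists and members whose probes disagreed; 1 list and its calls are not reported here. Promoter motifs and sequences were not analysed here.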

Additional observations from a re-analysis of the deposited data

How the results depend on the processing

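Counts of called proteasome genes varied with background, scaling, the filter, the choice of probes, the handling of duplicates and the arrays used. Medians varied with background, scaling, the choice of probes and the lame arrays used. In lame against normal crossbred arrays, 0 were called lower with normexp, quantile normalization, no filter on dim probes, slide as a block (replicate block), duplicates averaged by the first or by the last number, or the RNA sample as a random block (correlation 0.82), and 1 with the mean of probes; leaving out an array gave 0 to 2 lower calls and medians of -0.18 to -0.03. Lame R1 alone gave 6 higher, 5 lower (24.9% and 22.5% of all genes) and a median of 0.14, and lame R2 alone 1, 14 (15.1% and 31.1%) and -0.26. In lame against Tharparkar arrays, 0 higher and 1 lower were called with normexp or no filter, 2 and 5 with quantile normalization, 1 and 3 with the replicate block, 1 and 4 when duplicates were averaged by the last number, 0 and 0 by the first number or with the random block, 3 and 11 with lame R1 alone (30.6% and 24.8% of all genes) and 2 and 23 with lame R2 alone (24.1% and 34.1%); leaving out an array gave 0 to 2 higher, 0 to 9 lower and medians of -0.43 to -0.27. The median was -0.14 with normexp, -0.12 with quantile normalization, -0.15 with lame R1 and -0.56 with lame R2. In normal crossbred against Tharparkar arrays, 0 higher were called with normexp, no filter, duplicates averaged by the first number or the random block, and 2 with the mean of probes, which with quantile normalization also gave 1 lower call; lame R1 alone gave 4 higher and 14 lower (30% and 27.8% of all genes) and lame R2 alone 2 and 12 (25.2% and 22.1%), since that changes the shared spread. Leaving out an array gave 0 to 2 higher, 0 to 1 lower and medians of -0.26 to -0.20, and normexp a median of -0.0402 and the only reversed gene, PSMA3, at -0.0056. The replicate block changed no median. The authors' table gave the same counts. Counts over all 15137 genes moved as well. In lame against normal crossbred arrays 496 were lower with normexp, 931 with quantile normalization, 647 with the replicate block and 763 averaged by the last number. In lame against Tharparkar arrays those settings gave 1267, 1563, 1298 and 1859 lower, and 733, 1712, 1601 and 2246 higher. Without the filter 232 and 582 of 26649 genes were lower in these comparisons. The cause of these changes was not tested. Dim probes limit PSMA3, PSMC3IP and PSMB11.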
